A study of Mus musculus with 4 samples.

Results

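The genes described here are 34 mouse genes of DNA repair and of the checkpoints that hold the cell cycle when DNA is damaged or a replication fork stalls, chosen by symbol. All 34 were on the array, where 60 of 22690 probe sets (the groups of short probes that read 1 transcript) carried exactly 1 of these symbols. The array named 12393 genes by a probe set with 1 symbol. By textbook role, 19 of the 34 were taken as linked to replication: Ung, Msh6, Exo1, Rad51ap1, Rad54l, Brca1, Brca2, Bard1, Blm, Chek1, Atr, Fanca, Fancc, Fancg, Fancl, Neil3, Rad18, Polh and Rad21. The other 15 were Chek2, Atm, Xrcc1, Xrcc5, Xrcc6, Parp1, Parp2, Apex1, Rad50, Nbn, Ercc1, Xpc, Ogg1, Mutyh and Rad23b.

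RNA of whole lung from mouse embryos was hybridised to 4 Affymetrix arrays, 2 of wild-type lung and 2 of lung carrying an Sftpc-Nmyc transgene. The transgene fuses mouse Nmyc1 (now Mycn, a MYC family transcription factor that drives growth and division) to EGFP under 3.7 kb of human SFTPC promoter, a driver of expression in epithelial cells of the lung. The titles place all 4 samples at embryonic day 18, and the design text gives day 18.5 for the transgenic embryos, which came from pronuclear injection into F2 eggs of C57BL/6J and DBA/2J. The strain of the wild-type embryos is not stated, and the duplicates are called biological replicates. The comparison sets lungs with forced Nmyc expression against normal ones.

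Repair genes meet DNA at different moments. Mismatch repair, homologous recombination, the Fanconi anaemia pathway, damage bypass and the ATR and CHK1 kinases work behind or at the replication fork, and many of these genes are transcribed mainly in dividing cells. Base excision, nucleotide excision and end joining act on damage at any phase of the cycle, so their genes are also needed in cells that no longer divide.

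Many replication-linked repair genes were higher in the Sftpc-Nmyc lungs, Ung, Brca1 and Msh6 among them. Their count depended on the settings: it was 10 in the main fit, 4 with no filter on dim genes and 3 with a filter at the 50th percentile. Outside that class, Apex1, Parp1 and Xrcc1 of base excision and single-strand break repair and Xrcc6 of end joining also rose. Rad23b, Xpc and Ercc1 of nucleotide excision and the ATM and CHK2 kinases did not pass the test. Of the 34 genes, 30 were bright enough to test, 14 of these were higher at an adjusted p under 0.05 in limma (a linear model over all genes, with Benjamini-Hochberg adjustment) and 0 were lower. At an unadjusted limma p under 0.05, 17 were higher and 0 lower. Over all 8675 genes tested, 14.7% were higher and 15.7% lower by the same rule, 30.4% in all. The higher share among the repair genes tested was 46.7%. Genes entered the test by their mean log2(signal + 5) over all 4 arrays. Ung, Brca1, Rad54l and Rad18 had wild-type means of 4.38, 4.71, 5.01 and 5.21. These lie below the mean over all arrays of Mutyh (5.36), which was too dim to test. They thus entered through their Sftpc-Nmyc signals, and the share of 46.7% depends in part on the filter. The log2 difference, Sftpc-Nmyc minus wild type on the log2(signal + 5) scale, had a median of 0.64 over the 34 genes and of -0.03 over the 12393 genes with a probe set. The groups did not overlap for 26 of the 34 genes, against 60.5% of those 12393, and in 25 both Sftpc-Nmyc arrays were above both wild-type arrays, against 26.7%. Among tested genes of any kind the groups did not overlap in 68.4%.

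**Figure D1:**
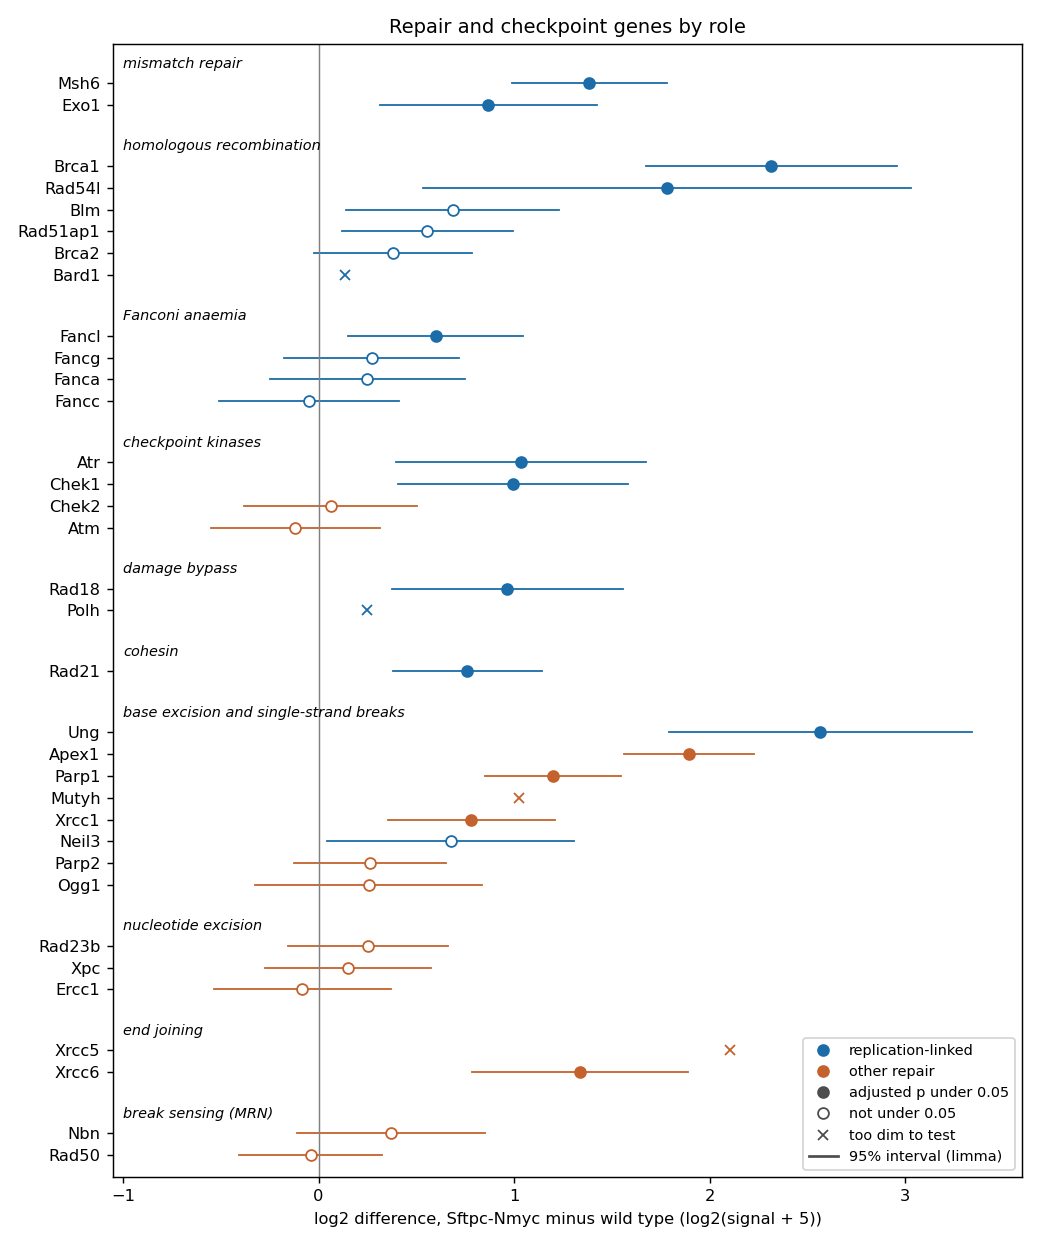
Log2 difference (Sftpc-Nmyc minus wild type, log2(signal + 5) scale, horizontal axis) of each of the 34 genes, grouped by role, with the 95% limma interval as a line, n = 2 arrays per group. Blue marks replication-linked and orange other repair genes. Filled points passed at an adjusted p under 0.05, open points did not, and crosses mark the 4 genes too dim to test. Ung, Brca1 and Apex1 lie farthest to the right among the filled points, and no filled point lies left of 0.

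Many of these genes are faint on the array. The highest signal of 27 Bacillus control probe sets, a guide to background, was 73.4. On all 4 arrays 18 of the 34 genes exceeded it, and 6 did so on none. This level lay above the median of every array (65.45 to 70.8). Most probe sets on each array were thus below it as well, and faintness is not particular to these genes. Brca1, Exo1, Rad54l, Ung and Xrcc6 exceeded the Bacillus level on both Sftpc-Nmyc arrays and on neither wild-type array. Folds of such genes rest on wild-type signals near background, and the offset of 5 understates changes of dim genes. In whole lung, fewer cells that express a gene and less RNA per cell cannot be told apart.

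Over the series as a whole, array medians ran from 65.45 to 70.8. Of the Mycn probe sets, 1 read 34.7 and 32.1 in wild type and 455.2 and 356 in the Sftpc-Nmyc lungs, another was lower in the transgenic lungs (25.1 and 27.2) than in wild type (78.7 and 63.5), and the remaining one gave no call. Xist read 1707.8 and 1506.1 in wild type and 59.3 and 63.9 in Sftpc-Nmyc, while the Y-linked Eif2s3y read 3.1 and 0.8 against 58 and 61.7, so sex and genotype cannot be told apart. Of 8 endothelial markers 8 were lower, with a summed signal of 6297 and 7189 in wild type and 2443 and 2311 in Sftpc-Nmyc. Of 8 fibroblast markers 6 were lower (14762 and 15691 against 8533 and 8990). Of 13 lung epithelial markers, which place the tissue as lung, 4 were higher, Epcam among them, and 6 lower, Sftpb among them (29622 and 33740 against 18647 and 14136). Of 10 lymphocyte and thymus markers, 10 were at or below the Bacillus level on every array. Of the macrophage markers tested, only Csf1r and Lyz2 were lower, and markers of red cells (2 of 2) and heart muscle (7 of 8) were lower as well. None of these lists held a higher gene. The 1 liver marker tested, Alb, was lower, a call lost without either wild-type array or Sftpc-Nmyc replicate 1 (limma adjusted p up to 0.10). The part of these shifts in cell markers in the results below was not tested.

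Both mismatch repair genes rose. Msh6, which recognises mispaired bases in newly made DNA, read 97.8 and 83.7 on the wild-type arrays and 228.4 and 256.2 on the Sftpc-Nmyc arrays. The groups lay well apart, with a log2 difference of 1.38 ± 0.17 (SE, n = 2 per group; limma adjusted p = 0.0013). Exo1, the nuclease that removes the mispaired strand and also trims broken ends, read 47 and 51.6 in wild type and 76.5 and 104.9 in Sftpc-Nmyc. Its groups did not overlap, at 0.87 ± 0.24 (limma adjusted p = 0.029), and its other probe set rose as well, by 1.11 ± 0.31 (limma adjusted p = 0.035 over all probe sets). The 3 other mismatch repair genes tested (of 6 listed) gave no call, with a median of 0.38.

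Homologous recombination copies an intact sister chromatid to mend a break. Brca1, a scaffold that starts this repair, read 24.3 and 20.2 in wild type and 100.9 and 153.1 in Sftpc-Nmyc by its brightest probe set. The lowest Sftpc-Nmyc reading was above both wild-type readings, with a log2 difference of 2.32 ± 0.28 (limma adjusted p = 0.0012). Brca1 was also read by 2 dimmer probe sets that were not tested and differed by 1.95 and 2.41. The remaining probe set went the other way without passing, from 77.8 and 41.4 to 29.7 and 43.4, at -0.52 ± 0.34 (limma adjusted p = 0.31 over all probe sets). This last probe set became the brightest when the choice was made again without either Sftpc-Nmyc array, so that Brca1 then stood at -0.31 and -0.72. With the probe set held fixed, Brca1 kept its call whichever array was left out.

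Rad54l, a motor protein that acts while the broken strand pairs with its sister, read 60.1 and 11.9 in wild type and 93.5 and 117.9 in Sftpc-Nmyc. The wild-type arrays differed from each other more than for any other gene that passed, and the difference was 1.78 ± 0.54 (limma adjusted p = 0.040). The dimmer Rad54l probe sets, not tested, differed by less, at 0.99 and 0.85. Blm, the Bloom syndrome helicase that dissolves joined recombination intermediates, read 55 and 73.9 against 91.2 and 113.6, and Rad51ap1, which promotes strand pairing, read 88.7 and 78.4 against 133.1 and 113.5. In both, the Sftpc-Nmyc arrays were above the wild-type arrays by the brightest probe set, but the differences of 0.69 ± 0.24 and 0.56 ± 0.19 fell short (limma adjusted p = 0.060 and 0.059). A dimmer Rad51ap1 probe set overlapped between groups, at 63.3 and 49.5 against 66.2 and 43.5 (0.016 ± 0.28). Of the remaining Rad51ap1 probe sets, the brighter differed by 0.55 ± 0.25 without passing and the dimmer, not tested, by 1.28. Brca2, a mediator of strand exchange, read 100.1 and 95.3 against 132.4 and 122.3, a difference of 0.38 with a 95% interval from -0.02 to 0.78. Bard1, the partner of BRCA1, stood between 1.9 and 4 on all arrays and was not tested. At an unadjusted limma p under 0.05, 8 of 17 other recombination genes tested were higher and 1 lower. At the adjusted threshold 3 of them were higher and 0 lower, a higher share of 17.6% against 14.7% over all genes. These were Rpa2 at 1.97 ± 0.29 and Rpa3 at 1.02 ± 0.17, subunits of the protein that coats single-stranded DNA, and Mre11a, the nuclease of the MRN break sensor, at 1.56 ± 0.34. The Mre11a call was lost without Sftpc-Nmyc replicate 2 (1.10, limma adjusted p = 0.085).

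Of the checkpoint kinases, Atr and Chek1 rose, and Atm and Chek2 did not pass. Atr, which senses stalled forks, read 81.5 and 43.7 in wild type and 118 and 132.5 in Sftpc-Nmyc, a difference of 1.03 ± 0.28 (limma adjusted p = 0.026). Chek1, the kinase ATR activates, read 34.6 and 42.2 against 72.1 and 81.5, a difference of 0.99 ± 0.25 (limma adjusted p = 0.022). In both genes the groups did not overlap. A dimmer Chek1 probe set, not tested, went from 3.5 and 9.2 to 72.6 and 58.1, and the remaining Chek1 probe sets stayed at or below 20.1 with differences of -0.31 and 0.33. Atm, which senses double-strand breaks, read 95 and 99 against 81.6 and 92.6, and Chek2, the kinase ATM activates, read 84.4 and 79.7 against 81.9 and 84.4. The groups overlapped for Chek2 and lay close for Atm, and the 95% intervals of the differences ran from -0.55 to 0.31 for Atm and from -0.38 to 0.50 for Chek2. The difference between the pairs of kinases was not tested.

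Other checkpoint genes held the largest share of calls among the repair lists with at least 5 genes tested. Of 12 tested, 8 were higher and 0 lower (9 and 0 at an unadjusted limma p under 0.05), a share of 66.7%, with a median of 0.73. Timeless and Tipin, which form the complex that steadies the fork and passes the signal to CHK1, rose by 1.24 ± 0.17 and 1.54 ± 0.16 (limma adjusted p = 0.0020 and 0.00073). Topbp1, which switches ATR on, rose from 131.9 and 103.3 to 325.6 and 381.9, a difference of 1.56 ± 0.18 (limma adjusted p = 0.0010). These 3 calls held with each array left out in turn, and the count of higher genes was then 6 when wild-type replicate 1 was left out, 5 for wild-type replicate 2, 5 for Sftpc-Nmyc replicate 1 and 4 for Sftpc-Nmyc replicate 2. Of 15 genes tested that p53 switches on after damage, 2 were higher (13.3%, against 14.7% of all genes). Lower were 4 of the 15, against 15.7% of all genes, and the median was -0.06 over the 19 measured. The 4 lower became 2 without replicate 1 of either group and 1 without replicate 2 of either group, and the 2 higher became 1 without wild-type replicate 1 or Sftpc-Nmyc replicate 2. Cdkn1a, the inhibitor that stops the cycle, fell from 231.1 and 291.6 to 119.5 and 130.7 (-1.02 ± 0.18, limma adjusted p = 0.0046), and Phlda3, a brake on AKT signalling, fell by 0.70 on the log2 scale (SE 0.16, limma adjusted p = 0.013, with the call lost without wild-type replicate 1, wild-type replicate 2 or Sftpc-Nmyc replicate 2). Perp, a membrane protein that is also part of epithelial desmosomes, rose by 1.30 ± 0.17 (limma adjusted p = 0.0015).

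**Figure D2:**
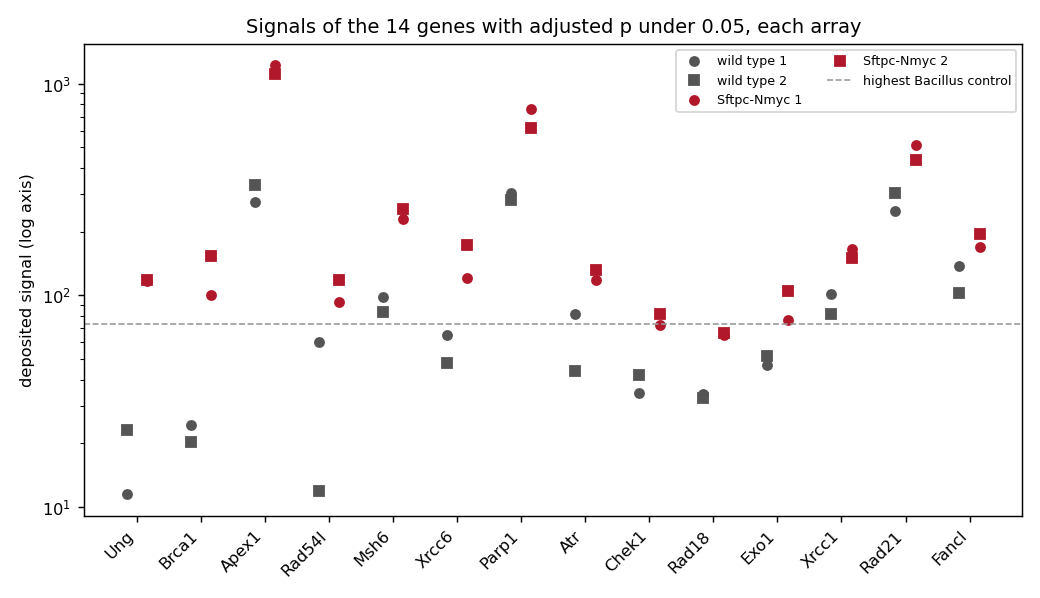
Deposited signal (vertical log axis) on each of the 4 arrays for the 14 genes that passed, in order of their log2 difference, with wild type in grey, Sftpc-Nmyc in red, replicate 1 as circles, replicate 2 as squares and the highest Bacillus control (73.4) as a dashed line. The groups do not overlap for any of these genes, and the wild-type points of Ung, Brca1 and Rad54l lie below the line.

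The Fanconi anaemia proteins unhook crosslinks that block a fork. Fancl, the ubiquitin ligase of the pathway, read 137.7 and 103.1 against 168.6 and 196, a difference of 0.60 ± 0.19 that passed narrowly (limma adjusted p = 0.0497). Fanca and Fancg, scaffolds of the complex around FANCL, differed by 0.25 (95% interval -0.25 to 0.75) and 0.27 (-0.18 to 0.72) by their brightest probe sets and did not pass. The other probe set of each went the other way, at -0.61 for Fanca, not tested, and at -0.41 ± 0.24 for Fancg, which did not pass. Fancc gave 2 readings that disagree. Its brighter probe set overlapped between groups, at 125.5 and 160.7 against 151.8 and 123.8 (-0.05 ± 0.20), while the other fell from 167.8 and 130.1 to 54 and 48.7 (-1.39 ± 0.21, limma adjusted p = 0.0035 over all probe sets). Where each lies in the transcript is not known here. Of 5 other Fanconi genes tested, 1 was higher and 0 lower (also 1 and 0 at an unadjusted limma p under 0.05): Usp1, the enzyme that removes ubiquitin from FANCD2 and PCNA, rose by 1.39 ± 0.17 (limma adjusted p = 0.0013).

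Damage bypass and cohesion were each read by few genes. Rad18, the ligase that marks PCNA at blocked forks, read 34.2 and 32.7 against 64.9 and 66.3, below the Bacillus level on every array (0.97 ± 0.26, limma adjusted p = 0.025). Its dimmer probe set did not pass, at 0.55 ± 0.30 (limma adjusted p = 0.21 over all probe sets). Polh, the polymerase that copies past ultraviolet damage, stayed between 1.1 and 7.4 on all arrays and was not tested. Rad21, the ring-closing subunit of cohesin that holds sister chromatids together, read 249.3 and 305.7 against 515.1 and 435.8, a difference of 0.76 ± 0.16 (limma adjusted p = 0.011). Of its other probe sets, the dimmer rose by 1.13 ± 0.27 (limma adjusted p = 0.020 over all probe sets), and the brighter did not pass at 0.31 ± 0.15. Of 10 other bypass genes tested, 1 was higher, the polymerase Rev1, and 1 lower, the ubiquitin-conjugating enzyme Ube2a, and either call was lost whichever array was left out. Of 11 other cohesin genes tested, 1 was higher and 0 lower (3 and 1 at an unadjusted limma p under 0.05). This was Cdca5, which keeps cohesin on chromatin from S phase on, at 1.51 ± 0.32, a call lost without Sftpc-Nmyc replicate 2 (limma adjusted p = 0.054).

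Base excision replaces single damaged bases, and it held the largest difference among the tested genes, that of Ung. Ung, the glycosylase that cuts uracil out of DNA and travels with the fork in its nuclear form, read 11.5 and 23 in wild type and 117.5 and 117.7 in Sftpc-Nmyc. The Sftpc-Nmyc arrays agreed closely and the groups were far apart, with a log2 difference of 2.57 ± 0.34 (limma adjusted p = 0.0016). Apex1, the endonuclease that cuts the backbone where a base has been removed, was read by 3 probe sets that all rose. The brightest went from 276.7 and 332 to 1220.8 and 1115, a 3.72-fold rise (1.90 ± 0.14, limma adjusted p = 0.00029), and the others rose by 2.03 ± 0.15 and 2.29 ± 0.16. All Apex1 readings were above the Bacillus level on every array, so its fold does not rest on signals near background.

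Parp1, which binds single-strand breaks and marks them with poly(ADP-ribose), rose on all 3 of its probe sets, the brightest from 304.2 and 283.4 to 759.9 and 620.2 (1.20 ± 0.15, limma adjusted p = 0.0014), the others by 1.18 ± 0.16 and 1.23 ± 0.21. Its smaller relative Parp2 read 114.3 and 121.6 against 133.9 and 148.5 and did not pass, with a 95% interval of the difference from -0.13 to 0.65. The difference between Parp1 and Parp2 was not tested. Xrcc1, the scaffold for single-strand break repair, read 101.2 and 81.8 against 165 and 150.9 (0.78 ± 0.18, limma adjusted p = 0.016). Neil3, a glycosylase that also unhooks crosslinks at forks, read 53.9 and 46.5 against 100 and 62.9 and fell short (0.68 ± 0.27, limma adjusted p = 0.098). Of the enzymes against oxidised guanine, Ogg1 did not pass (0.26 ± 0.25), and Mutyh, at 21 and 29.8 against 51.9 and 52.3, was too dim for the test over genes. A dimmer Ogg1 probe set went from 24.9 and 28.4 to 46.1 and 48.1 and did not pass either (0.82 ± 0.30, limma adjusted p = 0.082 over all probe sets). Of 10 other base excision genes tested, 3 were higher and 1 lower. These became 1 and 0 without wild-type replicate 2, and 2 higher without replicate 1 of either group. Pcna, the sliding clamp, rose by 1.39 ± 0.16 and Lig1, the ligase of replication and long-patch repair, by 1.30 ± 0.26, the latter call lost without either wild-type array (limma adjusted p up to 0.063). Parp3 fell by 1.46 on the log2 scale (SE 0.26), a call lost without wild-type replicate 2 (limma adjusted p = 0.057).

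End joining seals broken ends without a template, and its KU ring was read by both subunits. Xrcc6 (KU70) went from 65.1 and 47.7 to 120.5 and 172.8, with groups that did not overlap (1.34 ± 0.24, limma adjusted p = 0.0053). Xrcc5 (KU80) went from 31 and 4.3 to 66.8 and 70.1, below the Bacillus level throughout and too dim for the test over genes. When every probe set was fitted on its own, Xrcc5 passed at 2.11 ± 0.58 (limma adjusted p = 0.033) and Mutyh at 1.02 ± 0.32 (0.049). That fit also filtered on the mean over all arrays. Xrcc5 had a mean log2(signal + 5) of 4.13 in wild type and 6.23 in Sftpc-Nmyc, so it entered through its Sftpc-Nmyc signals. Of 5 other end joining genes tested, 0 were higher and 0 lower (1 and 0 at an unadjusted limma p under 0.05).

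None of the 3 nucleotide excision genes and neither of the MRN genes among the 34 passed. Rad23b, a partner of the damage sensor XPC, read 414.5 and 310.4 against 464.7 and 398.8 by its brightest probe set, so that the groups overlapped. Its other probe set read 269.7 and 198.9 against 307.5 and 358.6. Its groups did not overlap there, but it did not pass (0.51 ± 0.19, limma adjusted p = 0.085 over all probe sets). Xpc read 87.3 and 87 against 95.2 and 94.2, and Ercc1, part of the nuclease that cuts out the damaged strand, read 114.2 and 96.5 against 87.5 and 108. By the brightest probe set of each, the 95% intervals of the differences, -0.16 to 0.66, -0.28 to 0.57 and -0.54 to 0.37, all end below 1, a 2-fold rise on this scale. Rad50 and Nbn, which form the MRN complex with MRE11, stood at -0.04 (-0.41 to 0.33) and 0.37 (-0.11 to 0.85). Mre11a, counted above with the other recombination genes, was higher at 1.56 ± 0.34. Of 15 other nucleotide excision genes tested, 3 were higher and 1 lower. Gtf2h4 and Ccnh, subunits of the general transcription factor TFIIH that opens DNA for repair and for transcription, rose by 0.97 ± 0.18 and 0.85 ± 0.15, while Ercc2, its helicase, fell from 130.2 and 160.2 to 52.4 and 30.1 (-1.70 ± 0.29, limma adjusted p = 0.0041), a call lost without wild-type replicate 2 (limma adjusted p = 0.051).

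**Figure D3:**
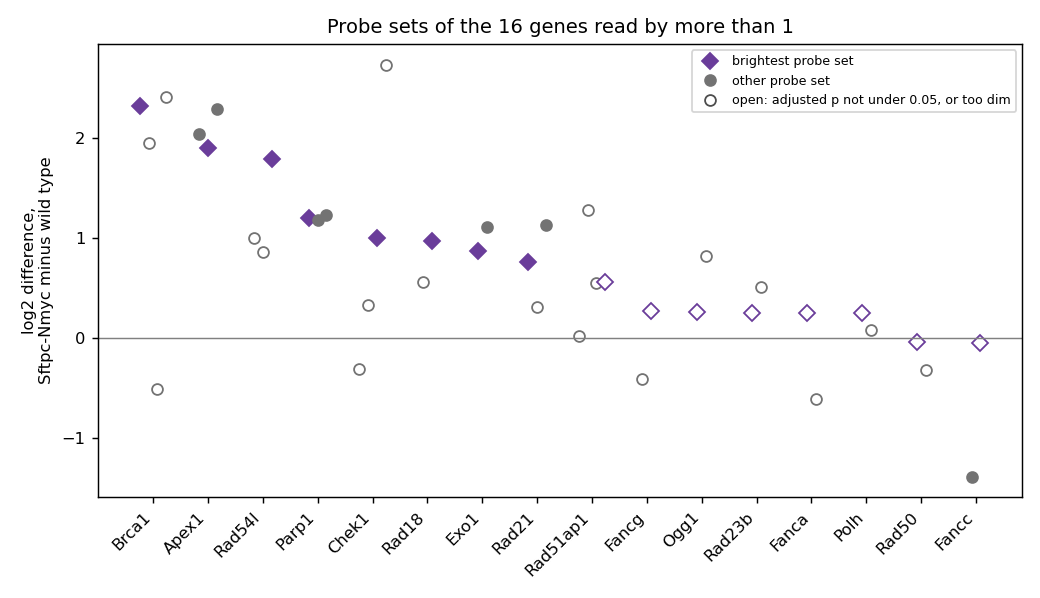
Log2 difference (Sftpc-Nmyc minus wild type, vertical axis) of every probe set of the 16 genes read by more than 1, with the brightest as a diamond and the others as circles, filled where the adjusted p was under 0.05. All 3 probe sets of Apex1 and of Parp1 are filled and close together, whereas 1 probe set of Brca1 lies below 0 and 1 of Fancc is filled at -1.39.

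Of the 16 genes read by several probe sets, 12 had every other probe set on the same side of 0 as the brightest, and Brca1, Chek1, Fanca and Fancg did not. At the level of probe sets, 48 of 60 were tested, 21 were higher and 1 lower, against 13.5% higher and 12.9% lower over all 14266 probe sets tested.

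Set side by side, 10 of 17 replication-linked genes tested were higher (58.8%) and 4 of 13 other repair genes (30.8%), against 14.7% of all genes. Ung, Brca1, Rad54l and Rad18, which entered the test through their Sftpc-Nmyc signals, are among the 10, so the first share depends in part on the filter. The contrast in counts did not hold under several alternatives. With 1 array left out and the probe sets held, 4 to 6 replication-linked and 3 to 4 other genes were higher. With no filter on dim genes the counts were 4 and 4, at the 50th percentile filter 3 and 3, and with the mean of a gene's probe sets 8 and 6. With probe sets and filter chosen again, they were 2 and 3 without Sftpc-Nmyc replicate 1 and 1 and 4 without Sftpc-Nmyc replicate 2. The median log2 difference was 0.69 over all 19 replication-linked genes and 0.26 over all 15 others, a gap of 0.42. Measured against each gene's mean over the arrays, the median replication-linked gene stood at -0.27 and -0.35 on the wild-type arrays and at 0.40 and 0.48 on the Sftpc-Nmyc arrays. The median other gene stood at -0.10 and -0.22, and at 0.22 and 0.09. The wild-type arrays thus lay below the Sftpc-Nmyc arrays in both classes, and farther below in the first. The gap depends on where 3 genes are placed: with Ung, Neil3 and Rad21 counted as other repair, the medians were 0.64 and 0.52 and the gap 0.12. With Rad50, Nbn and Mutyh counted as replication-linked, the gap was 0.42 again. The gap was not tested, since genes are not replicates.

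Within the other repair class, Apex1, Parp1, Xrcc6 and Xrcc1 passed with differences of 0.78 to 1.90, Xrcc5 and Mutyh stood at 2.11 and 1.02 without a test over genes, and the remaining 9 lay between -0.12 and 0.37 by their brightest probe sets. Dimmer probe sets of Ogg1, Rad23b and Rad50 stood outside this range, at 0.82, 0.51 and -0.32, and did not pass. The replication-linked class ran from -0.05 (Fancc) to 2.57 (Ung). This division of the other class was drawn after its values were seen.

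**Figure D4:**
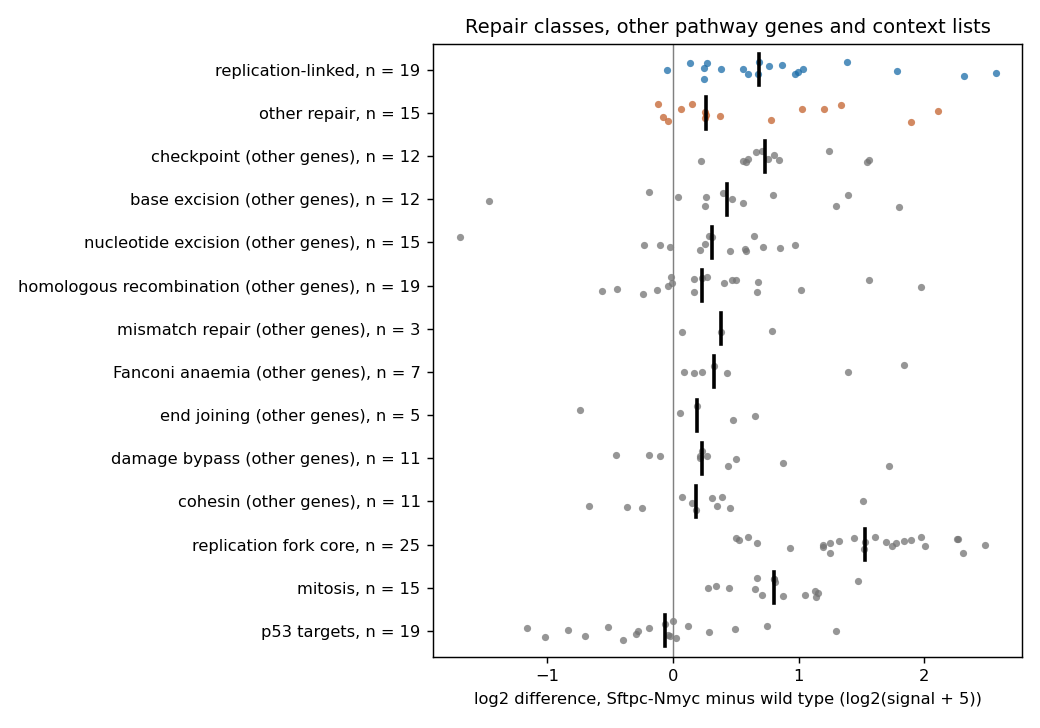
Log2 difference (Sftpc-Nmyc minus wild type, log2(signal + 5) scale, horizontal axis) of each gene in the 2 repair classes, in lists of other genes of the same pathways and in 3 context lists, 1 point per gene with a probe set and the median as a black bar. The replication fork list lies farthest to the right (median 1.53), the p53 targets sit around 0 (median -0.06), and the other repair class has 9 of its 15 points between -0.12 and 0.37.

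Genes of the fork itself had a higher median than the repair genes, a difference that was not tested. Of 23 core replication genes tested, 20 were higher and 0 lower (22 and 0 at an unadjusted limma p under 0.05), with a median of 1.53 over the 25 measured. Rfc5, a clamp loader subunit, rose by 2.26 ± 0.17, Cdt1, which licenses origins, by 2.30 ± 0.20 and Mcm6, part of the replicative helicase, by 1.60 ± 0.17. Of 14 mitosis genes tested, 9 were higher and 0 lower (12 and 0 unadjusted in limma), with a median of 0.80 over the 15 measured, near that of the replication-linked repair genes. That count was 3 without wild-type replicate 2, 5 without Sftpc-Nmyc replicate 1 and 4 without Sftpc-Nmyc replicate 2, while Bub1b, Cdk1 and Top2a kept their calls. Over all 88 tested genes of the other repair pathway lists, 20 were higher (22.7%) and 3 lower, with a median of 0.34 over the 96 measured. The 20 became 13 without wild-type replicate 2 and 12 without Sftpc-Nmyc replicate 2.

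Of the 14 repair genes that passed, 6 passed with any 1 array left out when probe sets and filter were held as with all 4 arrays: Apex1, Brca1, Msh6, Parp1, Ung and Xrcc6. With both chosen again, Apex1, Msh6, Parp1 and Xrcc6 passed in all 4 such fits. Without either Sftpc-Nmyc array, Ung was then too dim to be tested and Brca1 did not pass (limma adjusted p = 0.63 and 0.28). With the choice held, Rad21 did not pass without wild-type replicate 1 or Sftpc-Nmyc replicate 1. Chek1 did not pass without wild-type replicate 1 or either Sftpc-Nmyc array, and Exo1 without either wild-type array or Sftpc-Nmyc replicate 2. Atr, Fancl, Rad54l and Xrcc1 did not pass without wild-type replicate 2 or either Sftpc-Nmyc array, and Rad18 passed in none of these fits. All kept their direction, and the adjusted limma p-values of these 8 genes in such fits ran up to 0.21 (Fancl). In the same fits the count of 14 became 8 without wild-type replicate 2 and 7 without either Sftpc-Nmyc array. Filtering mattered as much: 8 passed with no filter on dim genes and 6 with a filter at the 50th percentile, which removes dim genes such as Ung and Brca1 from the test.

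Promoters were read from the RefSeq table of build GRCm38.p6, which held 29 of the 34 genes (not Exo1, Rad50, Xpc, Rad21 and Nbn) in windows from 250 bases before to 50 after the start. E2F-type letters (TTTCCCGC, TTTGGCGC, TTTCGCGC or TTTGGCGG, either strand), of the kind bound by the factors that switch on S phase genes, occurred in 7 of the 29 (24.1%): Brca2, Bard1, Msh6, Chek1, Chek2, Fancg and Xrcc6. They occurred in 2.37% of all 32851 windows and in 5.18% of 7027 tested genes with a window. Among the repair genes they occurred in 3 of 12 that passed and 3 of 13 that were tested and did not. The E-box CACGTG, the palindrome bound by MYC with MAX, occurred in 4 of 29 (13.8%), against 7.15% of all windows and 12.1% of tested genes. All 4, Apex1, Parp1, Parp2 and Xrcc5, belong to the other repair class (33.3% of its 12 genes with a window), and 0 of the 17 replication-linked genes with a window held it. The share over all 29 is near that of tested genes, and the split between the classes was not tested. The CCAAT box (CCAAT, either strand) occurred in 16 of 29 (55.2%), against 37.4% of all windows and 42.4% of tested genes. A promoter with several matches counts once, and a match describes letters and not binding.

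The stretches below show the E-box in Apex1 and Parp1, which rose, and in Parp2, which did not pass, and the E2F-type letters in Xrcc6, which rose, and in Fancg, which did not pass. Each ends at or before the gene's start, is written 5′ to 3′ on the gene's strand, and has the matched letters in capitals.
Apex1 (chr14:50924895-50924948, + strand): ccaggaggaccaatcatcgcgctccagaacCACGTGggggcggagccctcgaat
Parp1 (chr1:180568812-180568877, + strand): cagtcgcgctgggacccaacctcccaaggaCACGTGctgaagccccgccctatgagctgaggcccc
Parp2 (chr14:50807707-50807772, + strand): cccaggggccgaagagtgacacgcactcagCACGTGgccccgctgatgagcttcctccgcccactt
Xrcc6 (chr15:82016293-82016360, + strand): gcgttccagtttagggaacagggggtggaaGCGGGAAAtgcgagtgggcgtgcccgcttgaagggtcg
Fancg (chr4:43010316-43010383, - strand): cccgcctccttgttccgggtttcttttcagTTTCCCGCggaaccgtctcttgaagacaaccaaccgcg
The Apex1 E-box begins 24 bases before the start and is the first of 3 in its window, the others lying at and after the start. In Parp1 it begins 49 bases before the start and in Parp2 179 bases before it.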

How the data were processed

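Whole embryonic mouse lung was measured on 4 arrays, 2 per group. Per the labels' protocols, RNeasy-purified RNA was biotin-labelled using Affymetrix reagents. The authors deposited 1 linear intensity per probe set. How these were computed and scaled is not given in the sources used here, but each array has a mean of 150.048 once the top and bottom 2% are left out. Detection calls were not used here. Values under 1 were set to 1, 5 was added, log2 was taken and arrays were quantile normalized. The brightest of a gene's probe sets stood for it, and genes below the 30th percentile of mean level over all 4 arrays were not tested. limma 3.58.1 in R 4.3.3 (lmFit, eBayes with trend, group as the only term) was fitted to 8675 genes, with Benjamini-Hochberg adjustment and a threshold of 0.05, and the code was tested on simulated data. Errors are limma standard errors and intervals are at 95%. Gene names are those of the platform annotation, with symbols looked up in RefSeq (GRCm38.p6). The 34 genes, their classes and the lists were chosen with earlier results of these data known. Besides the 34 genes and Mycn, up to 3 passing genes of each pathway or context list and up to 2 of each marker list, those with the largest moderated statistics, are named, with Xist and Eif2s3y added outside this rule. Alternatives changed the offset, normalization, filter, probe-set choice, variance trend, replicate block, class assignment and arrays. The same-numbered arrays' deviations correlated at -0.04 over 8675 genes, so replicate numbers were not taken to pair arrays. The number of arrays limits the precision.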

Additional observations from a re-analysis of the deposited data

How the results depend on the processing

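The repair genes kept their direction in most alternatives. With each array left out in turn, with or without choosing probe sets and filter again (the latter added after seeing the data), the count of higher repair genes ran from 5 to 10 (7 to 10 with the choice held), of higher replication-linked genes from 1 to 6 (4 to 6 held; 1 and 2 without an Sftpc-Nmyc array, chosen again), of other pathway genes from 12 to 17 higher (12 to 16 held) and 0 to 3 lower. Over the same fits the replication-linked median ran from 0.55 to 0.75 (0.64 to 0.75 held), the other median from 0.26 to 0.36 and their gap from 0.20 to 0.48. With no filter 8 repair genes were higher, 4 of them replication-linked. At the 50th percentile filter 6 were higher, 3 of them replication-linked, and 1 other pathway gene was lower; fewer of the genes are tested there. With the mean of probe sets 1 repair gene was lower, the other median was 0.38 and the gap 0.31, and fitting every probe set also gave 1 lower, in both cases Fancc. An offset of 20 moved the replication-linked median to 0.58. Leaving out _s_at and _x_at probe sets (added after seeing the data) moved the other median to 0.37 and Rad51ap1 from 0.56 to 0.016. With Ung, Neil3 and Rad21 reassigned, the other median was 0.52 and the gap 0.12. With the replicate block 13 repair genes were higher, the call lost being Fancl. Signs turned for Fanca (-0.18) and Fancg (-0.069) with the mean of probe sets and for Fancc (0.022) and Rad50 (0.029) with median centring. With arrays left out, signs also turned for Fancc (-0.23 to 0.13, with 0.097 without Sftpc-Nmyc replicate 2), Rad50 (-0.10 to 0.023, with 0.0077 without wild-type replicate 1), Ercc1 (-0.21 to 0.046, with 0.030 without wild-type replicate 1), Bard1 (-0.052 to 0.31), Polh (-0.23 to 0.75, with -0.039 without wild-type replicate 2, chosen again) and, with another probe set chosen, Brca1 (-0.31 without Sftpc-Nmyc replicate 1 and -0.72 without replicate 2, up to 2.56). The cause was not tested where none is given. Signals near background limit what can be said of Bard1, Polh, Rad18, Mutyh, Ogg1 and Xrcc5.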
